A study of Homo sapiens with 6 samples.

Results

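The interferon-linked members of the poly(ADP-ribose) polymerase (PARP) family, PARP9, PARP10, PARP12, PARP14, ZC3HAV1 (PARP13) and TIPARP (PARP7), and the ubiquitin ligase DTX3L were followed in RNA-Seq data of ovarian cancer cells. These 7 genes were taken by symbol, each matched to 1 Ensembl identifier, out of 63677 genes in the deposited count table. UWB1.289, a human line from an ovarian tumour that lacks functional BRCA1 (the labels give its genotype as WT), received 4 µM Olaparib (n = 3) or DMSO, the vehicle (n = 3), for 24 h. Olaparib is an inhibitor of PARP1 and closely related PARPs. The dose comes from the sample labels and the study's methods, while the design text of the series gives 10 µM. All samples are of 1 line at 1 dose and 1 time, the study describes its replicates as independent, and no sample received interferon.

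Most PARPs other than PARP1, PARP2 and the tankyrases attach a single ADP-ribose unit to their targets rather than a chain. Interferons signal through JAK kinases to transcription factors of the STAT and IRF families, which bind interferon-stimulated response elements and gamma-activated sites. Several PARPs are among the genes so induced and act in antiviral defence, some as enzymes and others, such as PARP9 and ZC3HAV1, mainly through binding partners or RNA.

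Of the 7 genes, 5 were higher after Olaparib in edgeR's quasi-likelihood test with a Benjamini-Hochberg adjusted p under 0.05, and none was lower. PARP14, PARP9, DTX3L, PARP10 and PARP12 rose by 12.3% to 29.3%, so the changes were small. ZC3HAV1 and TIPARP did not pass the test. Over all 21729 genes tested, 2.15% were higher by the same criterion and 3.36% passed in either direction. At an unadjusted p under 0.05, 7.83% of all genes were higher and 14.8% passed in either direction, which is the background for the unadjusted counts of the lists. The median log2 fold change was 0.22 for the 7 genes and -0.0042 for all genes tested. With a fold threshold added (a log2 fold change beyond log2(1.2)), PARP14 and PARP9 were called, against 0.723% of all genes that were higher by both criteria and 1.21% in either direction. In the same 5 genes every Olaparib sample lay above every DMSO sample, an arrangement found for 10.0% of all genes tested, while 9.29% had every Olaparib sample below. For such a gene the exact permutation test of 3 samples against 3 (two-sided) gives its smallest possible p of 0.1. In these bulk samples, a change in the share of cells that express a gene and a change in the RNA per cell cannot be told apart.

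**Figure D1:**
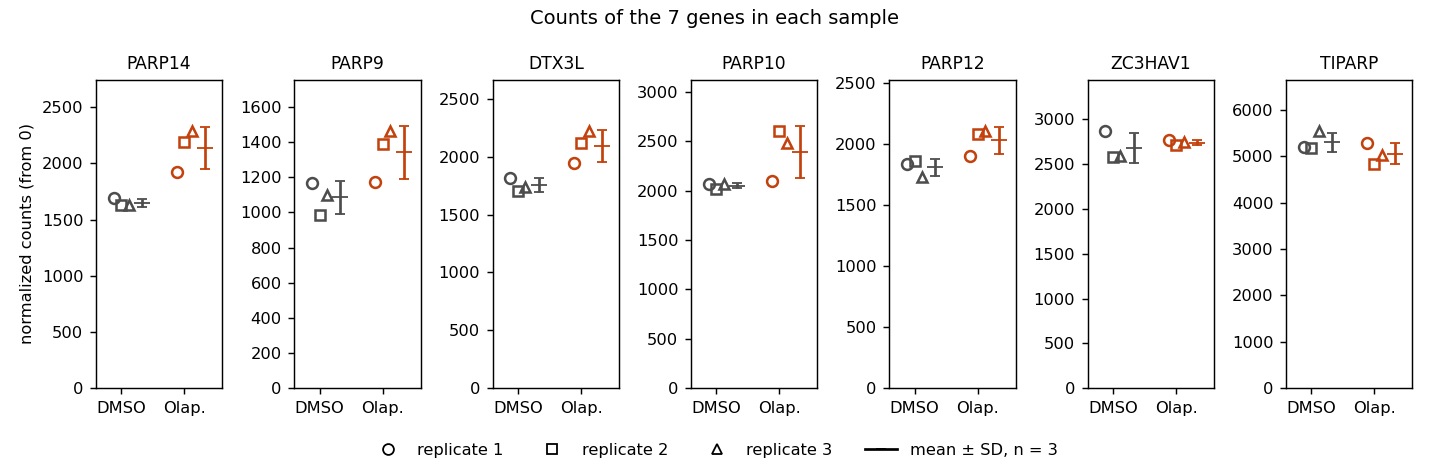
Normalized counts (vertical axes, each from 0) of the 7 genes in the 3 DMSO samples (grey) and the 3 Olaparib samples (orange), with marker shapes for replicates and bars for the mean ± SD. The groups are separate for PARP14, PARP9, DTX3L, PARP10 and PARP12 and overlap for ZC3HAV1 and TIPARP.

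PARP14, a mono-ADP-ribosyltransferase with macrodomains that bind ADP-ribose, had the largest rise of the 7 genes. The gene (ENSG00000173193) lies on chromosome 3 from 122680839 to 122730840 on the plus strand of GRCh38, and none of its exonic bases are shared with another annotated gene. It had 1927, 2189 and 2288 normalized counts in Olaparib replicates 1 to 3 and 1692, 1634 and 1628 in DMSO replicates 1 to 3. The DMSO samples lay close together, and the lowest Olaparib sample was still above all of them. The log2 fold change was 0.37 (SE 0.048, 95% interval 0.27 to 0.47, edgeR adjusted p = 3.9e-06). Leaving out single samples moved it between 0.32 and 0.44 and it passed each time.

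PARP9 and DTX3L form a protein complex in which DTX3L is the ubiquitin ligase and PARP9 a macrodomain partner with little catalytic activity of its own. Both genes lie on chromosome 3, PARP9 (ENSG00000138496) from 122527924 to 122564577 on the minus strand and DTX3L (ENSG00000163840) from 122564338 to 122575203 on the plus strand. They are transcribed away from each other and share 139 exonic bases on opposite strands, 1.56% of PARP9 and 2.41% of DTX3L. Reads of the 2 genes in these bases could not be told apart if strand was not used. PARP9 had 1174, 1389 and 1462 normalized counts in the 3 Olaparib samples and 1169, 987 and 1100 in the 3 DMSO samples. Olaparib replicate 1 was only just above DMSO replicate 1. The log2 fold change of PARP9 was 0.31 (SE 0.060, 95% interval 0.19 to 0.43, edgeR adjusted p = 0.0015). DESeq2's Wald test gave the same change with an adjusted p of 0.118, and edgeR's robust fit gave 0.0972. DTX3L had normalized counts of 1946, 2115 and 2221 with Olaparib and of 1819, 1707 and 1741 with DMSO, again with every treated sample above every control. Its log2 fold change was 0.25 (SE 0.045, 95% interval 0.16 to 0.35, edgeR adjusted p = 4.7e-04), and it passed under all 14 alternative settings.

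The balance of the 2 partners was read from their counts. PARP9 reads divided by DTX3L reads gave 0.603, 0.657 and 0.659 in Olaparib replicates 1 to 3 and 0.642, 0.578 and 0.631 in DMSO replicates 1 to 3. The mean ratio was 0.639 ± 0.0314 (SD, n = 3) after Olaparib and 0.617 ± 0.0346 after DMSO, and the groups overlapped (exact permutation test on the log2 ratio, two-sided, p = 0.5). With 3 samples a group this test cannot go below 0.1, so it does not show whether the balance changed.

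The start regions of these genes were read to show the letters that lie between the divergent pair and before PARP14, PARP12 and ZC3HAV1. RefSeq sequences of GRCh38.p14, from 250 bases before to 50 after each start, were used for 6 of the 7 genes. No window of PARP10 was searched, so whether its start region holds these motifs was not tested. The core of the interferon-stimulated response element was searched as GAAA, any 2 bases and GAAA, the gamma-activated site as TTCNNNGAA and the core of the AHR response element as GCGTG, each on both strands and overlaps allowed. Of 27305 genes with such a window, 4.38% held the first motif, 9.38% the second and 40.6% the third. In the stretches below, capitals mark matches to the first and second motifs.
PARP9 and DTX3L, chr3:122564301-122564347, plus strand: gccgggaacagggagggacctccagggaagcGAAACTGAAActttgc
PARP14, chr3:122680729-122680838, plus strand: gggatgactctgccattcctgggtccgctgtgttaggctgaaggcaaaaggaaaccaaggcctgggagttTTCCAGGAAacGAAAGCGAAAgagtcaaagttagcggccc
PARP12, chr7:140062952-140063061, minus strand: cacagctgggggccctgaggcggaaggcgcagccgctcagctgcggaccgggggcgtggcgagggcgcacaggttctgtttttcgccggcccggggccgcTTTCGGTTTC
ZC3HAV1, chr7:139109721-139109830, minus strand: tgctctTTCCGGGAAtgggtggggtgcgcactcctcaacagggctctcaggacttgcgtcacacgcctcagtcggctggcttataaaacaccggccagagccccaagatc

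The RefSeq start of DTX3L and the nearer start of PARP9 have 37 bases between them, and 1 match to the response element core served both windows. That match, chr3:122564332-122564341, ran from position -6 to 4 relative to the DTX3L start, where 1 is the first transcribed base, and from -41 to -32 relative to the PARP9 start. The window of the other PARP9 start held no such match. PARP14 held such a match from -29 to -20, with a match to the gamma-activated site directly upstream of it. PARP12 held its match from -10 to -1. ZC3HAV1 held no match to the response element core in its window and 1 to the gamma-activated site, from -104 to -96. TIPARP held neither in any of its 3 windows. The AHR element core was matched 2 times in TIPARP, 2 times in ZC3HAV1 and 1 time in PARP12, and it was found in 12 of 30 interferon-induced genes and 7 of 9 other ADP-ribosyltransferases. The response element core was thus found in 4 of the 6 member genes with a window searched, PARP9 and DTX3L sharing 1 match. It was found in 20 of 30 interferon-induced genes and in 0 of 9 other ADP-ribosyltransferases, out of 36 and 11 listed genes. Listed genes without a searched window were not counted. These are matches of letters, not evidence of binding.

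**Figure D2:**
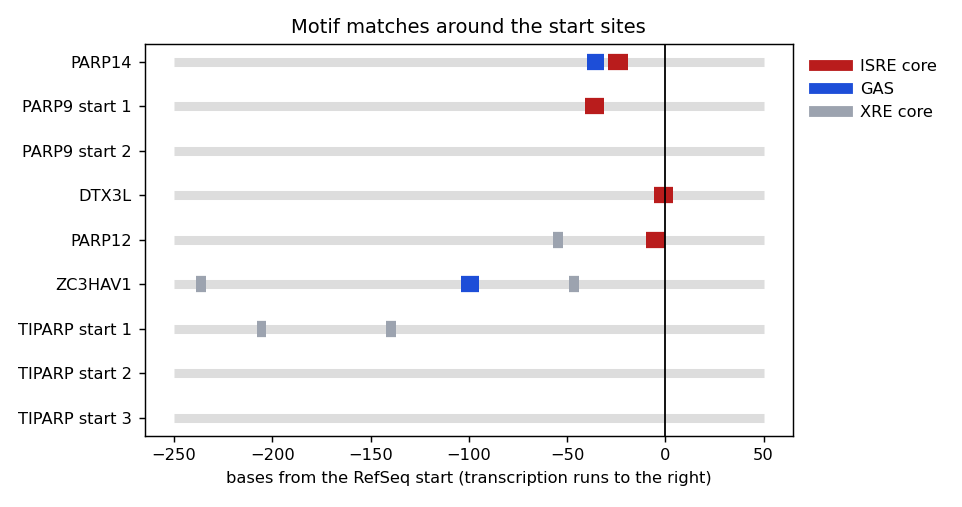
Positions of motif matches in the windows of 6 genes, in bases from each RefSeq start (vertical line), with 1 row per start and transcription running to the right. The interferon-stimulated response element core (ISRE core, red) lies at or just before the start, no farther than -41, in PARP14, DTX3L, PARP12 and PARP9. Only 1 of the 2 PARP9 starts has it, and no red block appears for ZC3HAV1 or TIPARP.

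PARP10, a mono-ADP-ribosyltransferase with RNA-recognition motifs, rose to a lesser degree. The gene (ENSG00000178685, chromosome 8, 143977153 to 144012772, minus strand) shares 8.64% of its exonic bases with genes on the opposite strand, 5.37% with GRINA and 3.27% with SPATC1. It had normalized counts of 2094, 2603 and 2483 with Olaparib and of 2066, 2020 and 2069 with DMSO. Olaparib replicate 1 was only a little above the highest control, while the other two lay well above. The log2 fold change was 0.22 (SE 0.051, 95% interval 0.12 to 0.33, edgeR adjusted p = 0.0083). The adjusted p was 0.180 with DESeq2's Wald test, 0.134 without Olaparib replicate 2, 0.0770 without Olaparib replicate 3 and 0.0739 without DMSO replicate 2 (edgeR). GRINA, at 8696 ± 267 normalized counts with Olaparib and 8117 ± 101 with DMSO, had a log2 fold change of 0.099 (edgeR adjusted p = 0.0626), and SPATC1 had 0 counts in all 6 samples. The part of reads from GRINA in the PARP10 counts was not tested.

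PARP12, a mono-ADP-ribosyltransferase with CCCH zinc fingers that resembles ZC3HAV1 in its domains, had the smallest change of those that passed. It lies on chromosome 7 from 140023749 to 140062951 on the minus strand (ENSG00000059378). It had normalized counts of 1902, 2084 and 2105 with Olaparib and of 1838, 1857 and 1728 with DMSO. The groups did not overlap, although Olaparib replicate 1 stood close to the controls. The log2 fold change was 0.17 (SE 0.044, 95% interval 0.078 to 0.26, edgeR adjusted p = 0.0261). The adjusted p rose to 0.126 without Olaparib replicate 2, 0.209 without Olaparib replicate 3, 0.0596 without DMSO replicate 2 and 0.211 without DMSO replicate 3 in the same edgeR test.

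ZC3HAV1, the zinc-finger antiviral protein ZAP, binds CpG-rich RNA, promotes its decay and has no ADP-ribosyltransferase activity. It lies on chromosome 7 from 139043515 to 139132122 on the minus strand (ENSG00000105939). The counts were 2773, 2710 and 2744 after Olaparib and 2869, 2577 and 2597 after DMSO, so the treated samples fell inside the range of the controls, below DMSO replicate 1 and above the other two. The log2 fold change was 0.033 (SE 0.042, 95% interval -0.052 to 0.12, edgeR adjusted p = 0.786). Without DMSO replicate 1 it was 0.086 (edgeR adjusted p = 0.285), and it lay between 0.0053 and 0.086 with single samples left out. The difference between ZC3HAV1 and the genes that passed was not tested.

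TIPARP, a mono-ADP-ribosyltransferase known as a target gene and repressor of the aryl hydrocarbon receptor AHR, was the most abundant of the 7 transcripts. It lies on chromosome 3 from 156673235 to 156706770 on the plus strand (ENSG00000163659), far from the PARP9, DTX3L and PARP14 cluster. The counts were 5297, 4845 and 5034 after Olaparib and 5199, 5180 and 5546 after DMSO, and the ranges overlapped. The log2 fold change was -0.070 (SE 0.036, 95% interval -0.14 to 0.0033, edgeR adjusted p = 0.369). Under the 14 alternative settings it stayed negative, from -0.10 to -0.038, and did not pass.

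**Figure D3:**
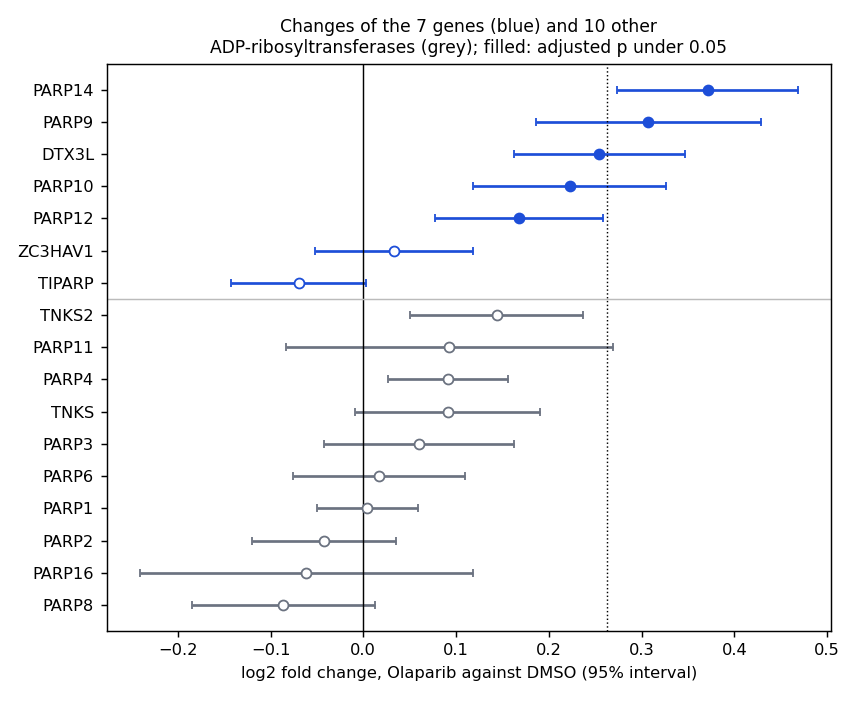
Log2 fold change after Olaparib against DMSO with its 95% interval for the 7 genes (blue) and 10 other ADP-ribosyltransferases (grey), where filled points passed an adjusted p of 0.05, the solid line marks no change and the dotted line log2(1.2). The 5 filled points are PARP14, PARP9, DTX3L, PARP10 and PARP12, and PARP15, with 12 counts in total, is not drawn.

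Levels were compared between genes per length, as FPKM, counts scaled by exon length and library size, with exon lengths from GENCODE release 44. TIPARP came first with 29.5 ± 1.15 FPKM (SD, n = 3) after DMSO and 28.2 ± 1.26 after Olaparib, above every sample of the other genes. PARP10 (9.09 ± 0.121 after DMSO), PARP12 (8.77 ± 0.338), DTX3L (8.13 ± 0.266) and ZC3HAV1 (8.46 ± 0.514) followed. This order is by the mean over all 6 samples, and the ranges of neighbours in it overlapped. After DMSO alone, the mean of ZC3HAV1 was above that of DTX3L. After Olaparib the FPKM values were 10.6 ± 1.18 for PARP10, 9.85 ± 0.543 for PARP12, 9.70 ± 0.641 for DTX3L and 8.65 ± 0.10 for ZC3HAV1. PARP14, with 4.29 ± 0.0920 FPKM after DMSO and 5.55 ± 0.485 after Olaparib, lay below those 4 genes in every sample. PARP9 had the lowest level, 3.24 ± 0.275 FPKM after DMSO and 4.01 ± 0.448 after Olaparib, and its range over all 6 samples overlapped with that of PARP14. The mean level over all samples differed 7.96-fold between TIPARP and PARP9. With these exon lengths, the genes with the largest changes, PARP14 and PARP9, were thus those with the lowest levels per length.

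**Figure D4:**
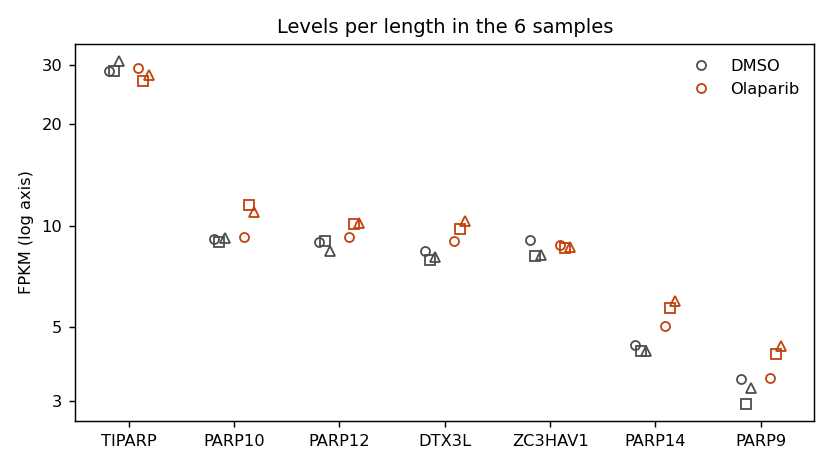
FPKM (log axis) of the 7 genes in each DMSO sample (grey) and Olaparib sample (orange), in the order of their mean level, with marker shapes for replicates. TIPARP stands near 30, PARP10, PARP12, DTX3L and ZC3HAV1 lie between 7.91 and 11.5, and PARP14 and PARP9 between 2.95 and 5.95.

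The samples were not alike within a group. Of the treated samples, Olaparib replicate 1 was lowest in 5 of the 7 genes, and Olaparib replicate 3 the highest in 4. On the scale of log2 CPM (counts scaled to a common library size), relative to the mean of the DMSO samples, the median of the 7 genes was 0.074 in Olaparib replicate 1, 0.27 in replicate 2 and 0.28 in replicate 3. The median of 36 interferon-induced genes stood in the same order, at 0.23, 0.40 and 0.51. Among the DMSO samples, replicate 2 was lowest for 5 of the 7 genes and for the interferon-induced genes, with medians of -0.034 and -0.095. Without Olaparib replicate 1, the criteria that include the fold-change threshold called 4 of the 7 genes instead of 2.

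**Figure D5:**
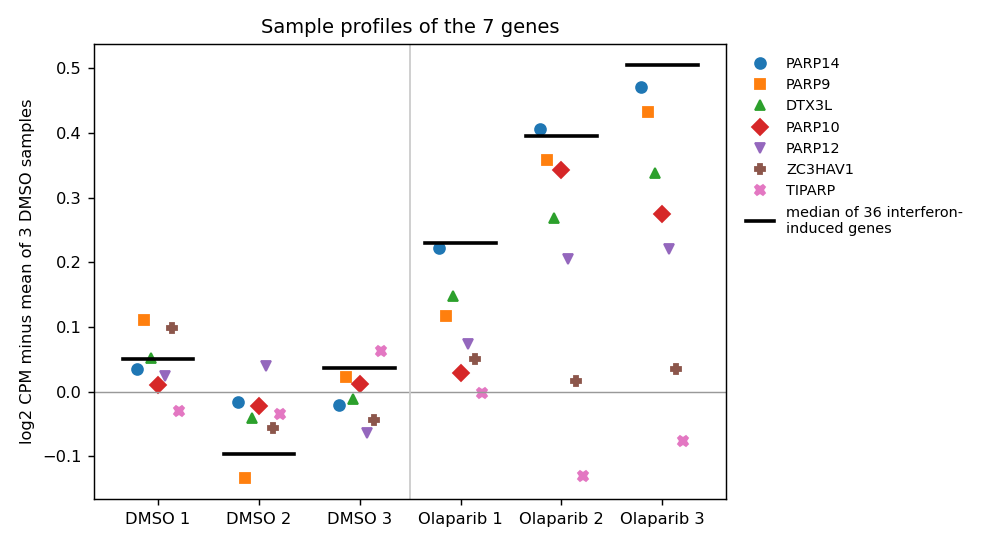
Log2 CPM of the 7 genes in each sample minus the mean of the 3 DMSO samples, with black bars for the median of 36 interferon-induced genes. PARP14, PARP9 and DTX3L lie highest in Olaparib replicate 3 and lowest of the treated samples in replicate 1, as do the black bars, whereas ZC3HAV1 and TIPARP do not follow them.

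The genes whose sample profiles were most like those of the 7 genes were sought among 11990 other genes whose mean count reached 100. Likeness was the root mean square difference between profiles of log2 CPM over the 6 samples, each centred on its mean. For PARP14 the nearest were TRANK1 (0.048), IFI44 (0.049) and HELZ2 (0.049), of which IFI44 and HELZ2 are known interferon-induced genes. For DTX3L they were SAMHD1 (0.022), a dNTP hydrolase that restricts retroviruses, TRANK1 (0.023) and IFIH1 (0.035), the RNA sensor MDA5. PARP9 was nearest to PPP1R3G (0.035), ISG15 (0.053), a ubiquitin-like protein, and TRANK1 (0.053). PARP10 was nearest to RGMA (0.040), PDE6D (0.042) and KRT81 (0.045). PARP12 was nearest to TMEM160 (0.0097), ZNF517 (0.013) and PEX10 (0.027). ZC3HAV1, whose own profile varied little, was nearest to ZNF830 (0.013), RAD1 (0.016) and UBE2F (0.017), and TIPARP to PIBF1 (0.011), GABARAPL1 (0.012) and TMEM126B (0.013). Within the 7 genes, DTX3L lay at 0.061 to 0.068 from PARP12, PARP14, PARP10 and PARP9, and ZC3HAV1 and TIPARP were farther from it, at 0.13 and 0.19. These distances describe 6 samples of 2 groups, and small distances are easily found among so many genes.

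PARP9, DTX3L and PARP14 are neighbours on chromosome 3, so the surrounding genes were read as well. Within 250 kb of the cluster (122277924 to 122980840), 10 other genes were tested. None passed an adjusted p of 0.05 in edgeR's quasi-likelihood test, DESeq2 or limma voom, and 0 of the 10 passed at an unadjusted p under 0.05, against 14.8% of all genes, a share too small to set so few genes apart. Their log2 fold changes ran from -0.43 to 0.14. The lowest was that of PARP15, another macrodomain PARP, which lies between DTX3L and PARP14 and had 12 counts over all samples, too few for a change to be measured. KPNA1, the nearest gene tested beside PARP9, stood at 5134 ± 174 normalized counts with Olaparib and 5054 ± 119 with DMSO (log2 fold change 0.022, edgeR adjusted p = 0.832). On the other side of PARP14, HSPBAP1 had a log2 fold change of -0.056 (edgeR adjusted p = 0.784).

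The 11 other ADP-ribosyltransferases of the family, from PARP1 to the tankyrases, served as the comparison within the family. None of them passed in edgeR's quasi-likelihood test, DESeq2 or limma voom, and 2 of 11 passed at an unadjusted p under 0.05 in each, near the background of 14.8%. In edgeR these were TNKS2 (log2 fold change 0.14, edgeR adjusted p = 0.0816) and PARP4 (0.091, adjusted p = 0.117). TNKS2 passed with the robust fit, without the filter on low counts and without Olaparib replicate 2, where the count was 1. Over the 11 genes the median log2 fold change was 0.017, against 0.22 for the 7 genes. PARP1, the target of Olaparib, had a log2 fold change of 0.0045 (95% interval -0.050 to 0.059).

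Most interferon ligand genes had few or no counts. Of 9 ligand genes, 7 had at most 6 counts over all samples and were not tested, and IFNB1 and IFNE had 11 and 203 counts in total. For IFNA1, listed at 0, 63.4% of the exonic bases overlap another gene, so a low count need not mean that it was not expressed. Of 21 genes for receptors, kinases, transcription factors and inhibitors of the pathway, 3 passed an adjusted p of 0.05 as higher and 0 as lower in edgeR (5 and 0 at an unadjusted p under 0.05, against 7.83% of all genes that were higher), and the number that passed was also 3 in DESeq2 and limma voom. IRF7, a factor that induces interferon genes, rose by 0.36 (adjusted p = 1.9e-04) and SOCS3, a feedback inhibitor of JAK signaling, by 0.35 (adjusted p = 0.0078) on the log2 scale in the same edgeR test. STAT2 and IRF9, which act together in a complex on response elements, did not pass in edgeR, STAT2 at 0.080 (adjusted p = 0.399) and IRF9 at -0.089 (adjusted p = 0.781) on the log2 scale. For IRF9, 27.2% of the exonic bases overlap another gene, so its counts are uncertain.

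Among 36 interferon-induced genes with roles in antiviral defence, 22 were higher and 0 lower (30 and 0 at an unadjusted p under 0.05), against 2.15% of all genes that were higher. Their median log2 fold change was 0.39. Among those that were higher, the share of exonic bases overlapping another gene reached 38.3%, and its effect on the counts was not tested. The 6 largest changes that passed were those of MX1 (1.05), IFIT1 (1.04), IFI44L (1.02), OAS2 (0.94), RSAD2 (0.87) and OASL (0.85). Each of these was more than 2 times the log2 fold change of PARP14. The count fell to 14 with DESeq2 and to 13 without Olaparib replicate 3 or without DMSO replicate 2.

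Genes tied to single members were read from lists as well. None of 6 erasers of mono-ADP-ribose, 4 other DELTEX ligases and 6 cofactors or the paralog of ZAP passed in edgeR, DESeq2 or limma voom, with 1 gene of each list at an unadjusted p under 0.05 in edgeR, close to the background of 14.8% for lists of this size. TRIM25, the ubiquitin ligase that ZAP needs for its activity, had a log2 fold change of 0.062 (edgeR adjusted p = 0.335). Of 7 genes of the AHR pathway, AHR itself was listed at 0 in all 6 samples and CYP1A1 had 9 counts, so neither was tested. Other genes share 35.2% of the exonic bases of AHR, and whether the 0 reflects absent expression or the assignment of reads was not tested. The other 5 did not pass in edgeR, DESeq2 or limma voom, with NQO1 lower at an unadjusted p under 0.05 (log2 fold change -0.085, edgeR adjusted p = 0.168). NQO1 passed when replicate number was added to the edgeR fit as a block. Other genes share 19.4% of its exonic bases.

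The libraries held 35360458 to 39640775 counts, and each of the 7 genes had 7269 to 31127 counts over the 6 samples. Replicates of one group differed by more than counting noise (chi-square per degree of freedom 1.81 to 4.11). Of 9 epithelial and Müllerian markers, 8 had enough counts to be tested and WT1 had 8 counts in total. Of 8 leukocyte and endothelial markers, CD3E had 6 counts, PECAM1 was listed at 0, which was not checked against read assignment, and CDH5 had 1606 ± 63.6 normalized counts after DMSO. PAX8 (log2 fold change 0.10, adjusted p = 0.0399) and VWF (0.68, adjusted p = 0.0106) were higher after Olaparib in edgeR's quasi-likelihood test. PAX8 did not pass with upper quartile scaling, and with single samples left out it passed only without Olaparib replicate 1. VWF did not pass in DESeq2. At an unadjusted p under 0.05 in edgeR, 5 of 8 tested epithelial and Müllerian markers were higher and 0 lower. Of 6 tested leukocyte and endothelial markers, 2 were higher and 0 lower. Over all genes tested, 7.83% were higher by this criterion. Other genes share 22.4% of the exonic bases of PAX8. The part of these markers in the changes of the 7 genes was not tested.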

How the data were processed

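RNA was measured in 3 Olaparib and 3 DMSO samples of UWB1.289 cells. The authors prepared stranded, poly(A)-enriched libraries, trimmed adapters with Trimmomatic, mapped reads to GRCh38 with STAR, marked PCR duplicates (Picard) and counted reads per gene (featureCounts); the deposited values are these raw counts. Whether duplicates were removed and which strand setting was used is not given in the sources used here. Samples were grouped by their titles. Genes with more than 10 counts in total were kept, scaled by TMM (factors 0.995 to 1.01) and tested by edgeR's quasi-likelihood method, and p values were adjusted (Benjamini-Hochberg) over all 21729 genes. Standard errors are the log2 fold change divided by the square root of F. Normalized counts are counts scaled to the mean effective library size. Names, coordinates and exon lengths came from GENCODE release 44, which held 81.9% of the identifiers, and start regions from RefSeq. Its exon models may differ from those the authors counted. Fits used edgeR 4.0.16, DESeq2 1.42.0 and limma 3.58.1 in R 4.3.3 and were tested on simulated counts. Named genes were the 7 members, list genes that passed (at most 6 per list), STAT2, IRF9, AHR and TRIM25, the 3 nearest profiles per member, and neighbours or overlapping genes. PARP1, PARP4, TNKS2, NQO1 and genes with few counts or used as markers were named after their values were seen. One gene that this rule names is not reported here, although it is part of the counts over its list. The members and lists were chosen with earlier results of these data known. Alternatives were DESeq2, limma voom, other scalings, filters, a robust fit, a fold-change threshold, a replicate block and leaving out each sample.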

Additional observations from a re-analysis of the deposited data

How the results depend on the processing

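Under 14 alternatives for each of the 7 genes, no log2 fold change reversed. PARP14 and DTX3L passed in all 14, with adjusted p values of 1.2e-14 to 3.8e-04 and 1.1e-06 to 0.0232. PARP9 passed in 12 (adjusted p 3.6e-08 to 0.118), PARP10 in 10 (2.6e-05 to 0.180) and PARP12 in 10 (0.0055 to 0.211). With DESeq2, PARP9 (0.31) and PARP10 (0.22) no longer passed, 3 of the 7 genes passed instead of 5, and 1 instead of 2 met the fold-change threshold as well. DESeq2 gave an adjusted p for 13299 genes and called 150 of them by both criteria, instead of 262 of 21729. With the robust fit, PARP9 (0.31) no longer passed and 1 gene was called. With an absolute log2 fold change above 0.5, 0 were called. With single samples left out, the log2 fold change ran from 0.24 to 0.40 for PARP9, 0.16 to 0.31 for PARP10 and 0.13 to 0.21 for PARP12. Over the same settings, 3 to 5 of the 7 genes passed, 1 to 4 were called, 398 to 870 of all genes passed, and 16 to 32 genes of the fixed lists passed against 25 with all samples. The cause of these shifts was not tested. The order of the levels per length, by the mean over both groups together, was the same under all 7 alternatives tried. These were raw library totals and leaving out each sample. None of them changed the exon lengths, so how far the order depends on those lengths was not tested. No pairing by replicate number was seen: deviations of same-numbered samples correlated at -0.20, 0.26 and -0.32 over 11997 genes. Not every sample correlated best with its own number, and the largest correlation, 0.48, was between Olaparib replicate 3 and DMSO replicate 1. The cause of that correlation was not tested. Deviations from the mean of 3 samples depend on each other, so these correlations cannot exclude a pairing. The replicate block raised the genes that passed from 730 to 1322 and left 5 of the 7 genes passing. PARP4, TNKS2 and NQO1 passed with it as well, and 5 instead of 3 receptor and signalling genes. Without Olaparib replicate 1, 1 eraser, ADPRS, passed.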
